A study of Mus musculus with 4 samples.

Results

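The DEAD and DEAH box RNA helicases are enzymes that use ATP to unwind RNA or to strip proteins from it, and are named after the amino acid letters of a conserved ATPase motif. Members were taken by symbol, as every gene named Ddx or Dhx followed by a number and at most 1 letter. The RIG-I-like receptors Ddx58 and Dhx58 were left out, as were Ddx3x and Ddx3y. Of 52 symbols with such a name, 48 were kept among the 28168 loci of the deposited table. The names follow sequence kinship for the most part, and the rule uses no difference between the groups. It was set with earlier results of these data known. Where a symbol had several loci, as Ddx6 and Dhx32 did, the locus with the highest mean level was used.

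These helicases act at nearly every step in the life of an RNA. DEAH box enzymes drive the rearrangements of the spliceosome, a large group of DEAD box enzymes works in the nucleolus on the assembly of ribosomes, and others export, translate or degrade messenger RNA. A few take part in antiviral defence, since double-stranded RNA (dsRNA) is both a substrate of helicases and a sign of infection.

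RNA was sequenced from mature olfactory sensory neurons, the odour-detecting nerve cells of the nasal epithelium, purified by fluorescence-activated sorting from mice. The series title describes transgenic mice that express dsRNA encoded in their genome, and its design text speaks of lines with neurodegeneration. All 4 libraries came from mice with the genotype OMP-IRES-GFP+/-, a reporter placed at the Omp gene of mature neurons. Both Nd1 libraries were Nd1+/- and OMP-IRES-tTA+/-, so that the transgene and the activator tTA were present together. The control of replicate 1 was Nd1+/- and OMP-IRES-tTA-/-, and the control of replicate 2 was Nd1-/- and OMP-IRES-tTA+/-. The controls therefore differ from each other in which element they lack. Ages were matched, with a library at 212 days (replicate 1) and another at 87 days (replicate 2) on either side. The table's title calls the controls littermates. The sources used here do not give the number of mice behind a library.

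The table gives 1 value per group in FPKM, a level scaled for transcript length and for sequencing depth, with the 2 libraries of a group combined by the authors. Neither the single libraries, nor their spread, nor their depth can therefore be shown. The authors' test statistic allows the standard error (SE) of each log2 ratio in their model to be recovered, and every SE below is of that kind. A gene is said to have risen or fallen only where q, their adjusted p-value over all tested loci, was under 0.05. Without values per library no test across samples could be added.

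Ddx60 changed far more than any other member. It went from 0.38 FPKM in control neurons to 16.6 FPKM in Nd1 neurons, a 43.5-fold rise, whereas 38 of the 41 tested helicases had a log2 ratio within 0.5 of 0. Apart from Ddx60, the rises of Dhx35 and Dhx32 and the falls of Dhx16, Ddx17 and Dhx57 passed the authors' threshold, and each was 1.57-fold or smaller. In all, 3 helicases rose and 3 fell, or 14.6% of the 41 tested. Over all 14841 tested loci 34.4% passed, 15.1% higher and 19.2% lower. At a mean level of 5 FPKM or more, the range that holds most helicases, 30.5% of the tested loci passed, 13.7% higher and 16.7% lower. The helicases of that range gave 5 calls in 36, 2 higher and 3 lower. No test of these differences in shares was made.

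**Figure D1:**
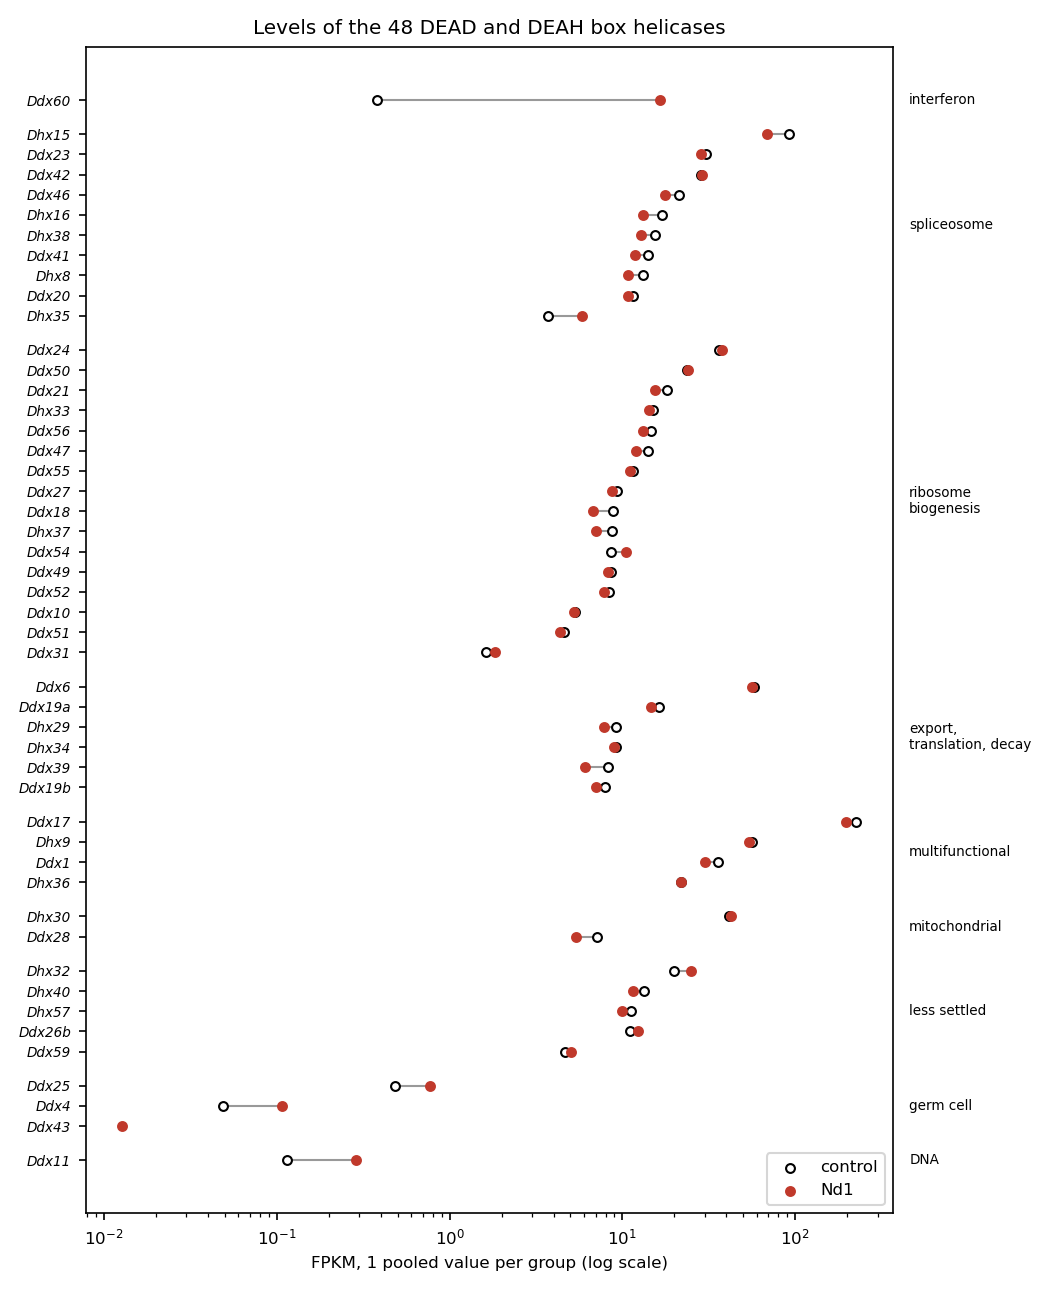
FPKM of each of the 48 helicases in control (open circles) and Nd1 (red circles), 1 pooled value per group on a log axis, grouped by role and ordered by the control level. The circles of most genes lie close together, and those of Ddx60 are the furthest apart, at 0.38 and 16.6 FPKM. Ddx11 (0.11 and 0.29 FPKM) and Ddx4 (0.049 and 0.11 FPKM), at the edge of detection and not tested, also show a gap. Ddx43 was listed at 0 in control, so only its Nd1 value is drawn.

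Ddx60 is an interferon-inducible helicase linked to antiviral defence and to signalling by RIG-I-like receptors. In the authors' deposited table its log2 fold change was 5.44 with an SE of 0.27 and a q listed as 0. It ranked 39 among all tested loci by the plain log2 ratio, and 20 when 1 FPKM was added to each value to damp low levels. On that scale its log2 ratio was 3.67. At 0.38 FPKM it was the lowest of the tested helicases in control neurons, and at 16.6 FPKM it lay above the Nd1 median of 11.3 FPKM over all 48. Its locus spans chromosome 8, bases 64406886 to 64516492 of mm9, and overlaps no other locus of the table. The RIG-I-like receptors, left out of the set, also rose in the authors' deposited table, Ddx58 from 12.4 to 39.1 FPKM and Dhx58 from 0.54 to 20.4 FPKM. For a bulk library, more neurons with the transcript and more transcript per neuron cannot be told apart.

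The bases just upstream of Ddx60 are shown because it is the helicase with the large change. They were searched on either strand for GAAA, 2 free bases and GAAA again, the core of the element through which interferon-activated factors bind DNA. The 250 bases before its start in RefSeq, on the plus strand at chr8:61927837-61928086 of GRCm38.p6, are printed with the matches in capitals.
Ddx60: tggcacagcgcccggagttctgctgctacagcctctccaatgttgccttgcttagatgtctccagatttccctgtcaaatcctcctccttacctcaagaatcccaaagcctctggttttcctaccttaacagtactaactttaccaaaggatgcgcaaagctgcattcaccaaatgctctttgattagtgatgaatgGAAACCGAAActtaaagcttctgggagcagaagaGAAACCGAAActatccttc
Both matches read GAAACCGAAA, and they begin 53 and 19 bases before the start. A window of 300 bases, reaching 50 bases past the start, was available for 43 of the 48 helicases. Ddx60 was the only one of these with more than 1 match in a window. Ddx49, a ribosome biogenesis helicase at 8.56 FPKM in control and 8.28 in Nd1, was the other of the 2 helicases with a match. Its match reads GAAAAAGAAA. Of all 32851 windows in the table, 3.44% held a match and 0.23% held more than 1. Counted by gene, a match was found for 4.65% of the 43 helicases and for 3.99% of all 27025 genes with a window. A match is a string of letters, and whether a factor binds there was not measured.

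Spliceosome helicases had calls in both directions. These enzymes include the DEAH box motors that carry the spliceosome from step to step. Of 8 tested members 1 rose and 1 fell (25%, beside 34.4% of all tested loci). The median log2 ratio was -0.17, beside -0.068 over all tested loci. Without regard to sign the median was 0.26, beside 0.17 over the tested helicases and 0.27 over all tested loci. Dhx35, a component of the catalytic spliceosome, had 3.71 FPKM in control neurons and 5.82 FPKM in Nd1 neurons. In the authors' deposited table this was a log2 fold change of 0.65 with an SE of 0.16 (q = 0.000357), the largest called change after that of Ddx60. Dhx16, the enzyme that activates the spliceosome for its first catalytic step, fell from 16.9 to 13.3 FPKM. Its log2 fold change in the authors' deposited table was -0.35 with an SE of 0.054 (q = 9.88e-10).

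The other spliceosome helicases did not pass or could not be tested. Dhx8, which releases the finished messenger RNA, was at 13.1 FPKM in control and 10.8 in Nd1, and Ddx46, which acts when the branch site is recognized, was at 21.3 and 17.6 FPKM. For both the unadjusted p in the authors' deposited table was under 0.05 (0.048 and 0.032), with q = 0.117 and q = 0.0848. Ddx41 was at 14.0 and 11.9 FPKM, Ddx23 at 30.3 and 28.5, Ddx42 at 28.6 and 29.0, and Ddx20, which works in the assembly of spliceosomal particles, at 11.5 and 10.9 FPKM. Dhx15, which takes spent spliceosomes apart, was the second most abundant of the 48 helicases, at 92.6 FPKM in control and 68.9 in Nd1. The authors' test failed for it, so that this log2 ratio of -0.43 carries neither an error nor a call. It failed also for Dhx38, the enzyme of the second splicing step, at 15.5 and 12.8 FPKM.

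Helicases of ribosome biogenesis gave no call at all. All 16 were tested, and none passed in the authors' deposited table, beside 34.4% of all tested loci. None had an unadjusted p under 0.05 there either. The median log2 ratio was -0.081, with members between -0.39 (Ddx18) and 0.29 (Ddx54). Ddx18 was at 8.89 FPKM in control and 6.80 in Nd1, Dhx37 at 8.77 and 7.09, and Ddx21, a nucleolar helicase that couples transcription to processing of ribosomal RNA, at 18.2 and 15.4 FPKM. Ddx54 was at 8.59 and 10.5 FPKM. It shares its locus with Ccdc42b, which rose from 0.76 to 4.52 FPKM in the authors' deposited table. The most abundant of the group, Ddx24, was at 36.3 and 37.9 FPKM, and the least abundant, Ddx31, at 1.63 and 1.83 FPKM. Ddx21 and Ddx50 are neighbouring genes of close sequence on chromosome 10, and Ddx50 was at 23.7 FPKM in control and 23.9 in Nd1. Reads shared between such copies may have been split in a way the table does not show. The remaining members, Ddx10, Ddx27, Ddx47, Ddx49, Ddx51, Ddx52, Ddx55, Ddx56 and Dhx33, had log2 ratios between -0.21 (Ddx47) and -0.027 (Ddx10).

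**Figure D2:**
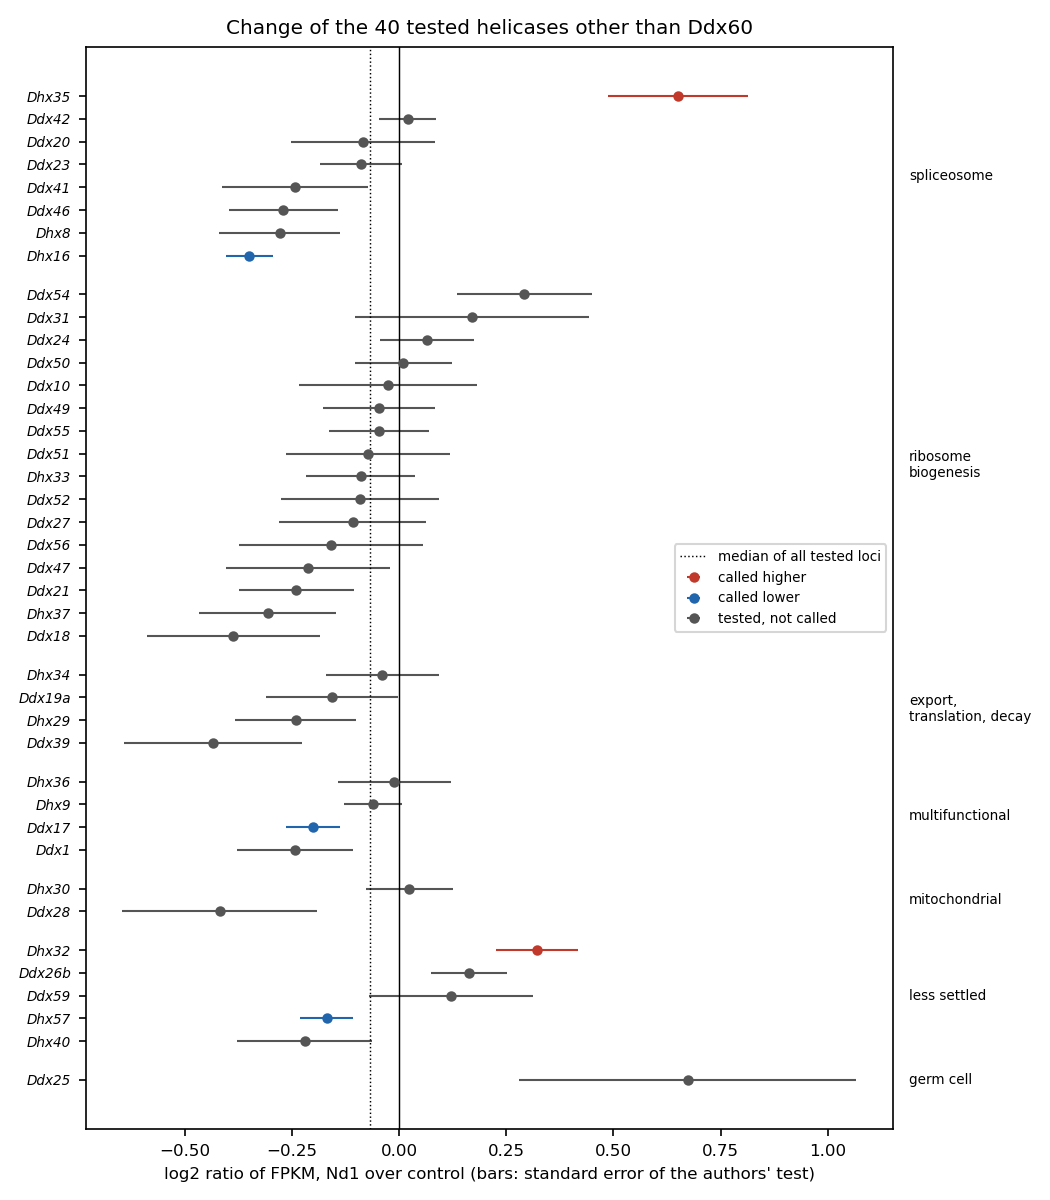
Log2 ratio of FPKM, Nd1 over control, for the 40 tested helicases other than Ddx60, grouped by role. Bars are 1 standard error of the authors' test, the dotted line is the median of all tested loci at -0.068, and colours mark the genes called higher (red) or lower (blue). The uncalled genes lie between -0.43 and 0.29 with the exception of Ddx25 at 0.67.

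Helicases of messenger RNA export, translation and decay also gave no call, in 4 tested of 6. Over all tested loci 34.4% passed, and 4 genes are few to set beside that share. The median log2 ratio was -0.20. Ddx39, an export factor, was at 8.26 FPKM in control and 6.11 in Nd1, with an unadjusted p of 0.037 and q = 0.0933 in the authors' deposited table. Dhx29, which helps ribosomes scan structured leaders, was at 9.24 and 7.81 FPKM, and Dhx34, a factor of nonsense-mediated decay, at 9.15 and 8.90 FPKM. Ddx19a, an ATPase of messenger RNA export at the nuclear pore, was at 16.3 and 14.6 FPKM. Its neighbour and near copy Ddx19b was at 7.96 and 7.06 FPKM, and the authors' test failed for it, as it did for Ddx6. Ddx6, which represses and degrades messenger RNA in cytoplasmic granules, was at 58.0 and 56.2 FPKM.

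Helicases with many tasks in transcription and RNA folding had the highest median level of the role groups, 46.1 FPKM in control and 42.2 FPKM in Nd1. Ddx17, a coregulator of transcription and splicing that also assists microRNA processing, was the highest of all 48, at 226 FPKM in control and 197 in Nd1. It made up 22.5% of the summed FPKM of the set in control and 21.1% in Nd1. Its fall was small, a log2 fold change of -0.20 with an SE of 0.063 (q = 0.00526) in the authors' deposited table. After quantile normalization of the 2 columns, with 1 FPKM added to each value, it was -0.087. Dhx9, which unwinds dsRNA and has been linked to both sensing and suppression of dsRNA signals, was at 56.6 and 54.2 FPKM. The 95% interval of its log2 ratio ran from -0.19 to 0.073. Dhx36, which opens G-quadruplexes, was at 21.9 and 21.7 FPKM, with an interval from -0.27 to 0.25. Ddx1, a partner of the transfer RNA ligase, was at 35.6 and 30.1 FPKM, with an interval from -0.51 to 0.021. None of these 3 passed, so that the group had 1 call in 4 tested (25%, beside 34.4% of all tested loci).

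Neither of the 2 mitochondrial helicases passed, beside 34.4% of all tested loci. Dhx30, found in mitochondrial RNA granules, was at 41.7 FPKM in control and 42.3 in Nd1. Ddx28, which works on the mitochondrial ribosome, was at 7.17 and 5.36 FPKM, a log2 ratio of -0.42 with an SE of 0.23.

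Among helicases of less settled role, 1 of 5 rose and 1 fell (40%, beside 34.4% of all tested loci). Both share their locus with other genes. Dhx32 had 19.96 FPKM in control and rose to 24.96 FPKM in Nd1. Its log2 fold change was 0.32 with an SE of 0.096 (q = 0.00329) in the authors' deposited table. The same locus entry holds Bccip, at 16.8 and 19.3 FPKM, and Fank1, at 21.7 and 26.5 FPKM, both higher in Nd1 without passing. Dhx57 had 11.3 FPKM in control and fell to 10.01 FPKM in Nd1. Its log2 fold change was -0.17 with an SE of 0.062 (q = 0.02) in the authors' deposited table. On the log2(FPKM + 1) scale its ratio was -0.15, and -0.097 once centred on the median of all tested loci. Its entry holds Morn2, at 34.9 and 43.5 FPKM, which did not pass. Nothing used here says whether reads were assigned by strand, so reads of overlapping genes may not be told apart. Ddx26b was at 11.04 and 12.4 FPKM, Dhx40 at 13.4 and 11.5, and Ddx59 at 4.64 and 5.04 FPKM. Ddx26b is now named Ints6l, a relative of an Integrator subunit that carries the family's name without its helicase core.

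Germ cell helicases and the DNA helicase Ddx11, which acts in sister chromatid cohesion, were at the edge of detection. Ddx4, the mouse Vasa, was at 0.049 FPKM in control and 0.11 in Nd1, Ddx43 was listed at 0 and at 0.013 FPKM, and Ddx11 was at 0.11 and 0.29 FPKM. These 3 were not tested by the authors. Ddx25, a testicular helicase, was at 0.49 and 0.77 FPKM and did not pass, with an interval of its log2 ratio from -0.10 to 1.45.

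Apart from Ddx60, the log2 ratios of the tested helicases lay between -0.43 and 0.67, over a wide range of abundance. Of the 48 helicases 40 had a mean of at least 5 FPKM, and 11 were at 20 FPKM or more in both groups. The summed FPKM was 1004 in control and 930.5 in Nd1. The median log2 ratio of the tested members was -0.089, with quartiles at -0.24 and 0.019. Over all tested loci it was -0.068, with quartiles at -0.31 and 0.20. A ratio within 0.5 of 0 was found in 92.7% of the tested helicases and in 66.8% of all tested loci, or 97.2% and 83.9% where the mean was at least 5 FPKM. More helicases lay below their control level than above it, 29 against 12 (70.7%), beside 58.1% of all tested loci. By name, 2 of 28 tested Ddx genes and 4 of 13 tested Dhx genes passed (7.14% and 30.8%, beside 34.4% of all tested loci), with median log2 ratios of -0.087 and -0.090.

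**Figure D3:**
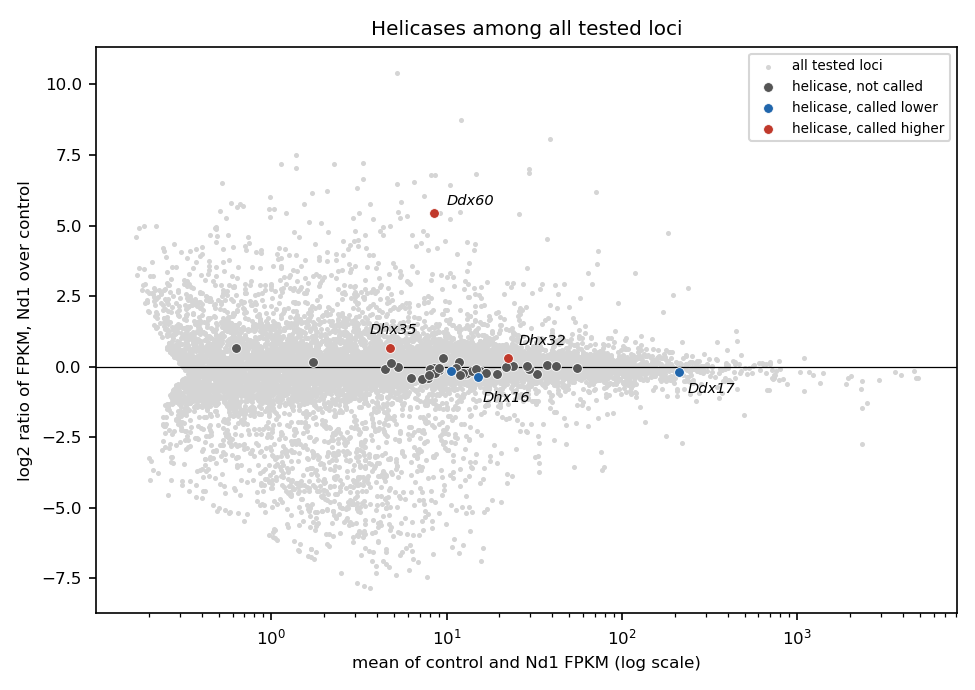
Log2 ratio of FPKM, Nd1 over control, against the mean of both groups on a log axis, for all tested loci above 0 in both groups (grey) and the 41 tested helicases (coloured by call). The helicases form a flat band near 0 inside a cloud that spreads from -7.83 to 10.4, and Ddx60 lies far above them at 5.44.

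Size alone did not set which of the small changes passed. Dhx16, Dhx57 and Ddx17 had the smallest SEs of the 41 tested helicases, 0.054, 0.062 and 0.063, beside a median of 0.14. In contrast, 4 helicases with a larger log2 ratio than Dhx16 did not pass, namely Ddx18, Ddx28, Ddx39 and Ddx25, with SEs from 0.20 to 0.39. The table does not show what in the libraries gave a gene a small or a large SE. Missing the threshold does not show that a level was the same in both groups. For 27 of the 35 helicases that were tested and not called, the 95% interval of the log2 ratio lay wholly within a 1.5-fold change in either direction. For the other 8, Ddx18, Ddx25, Ddx28, Ddx31, Dhx37, Ddx39, Ddx47 and Ddx54, it reached further.

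**Figure D4:**
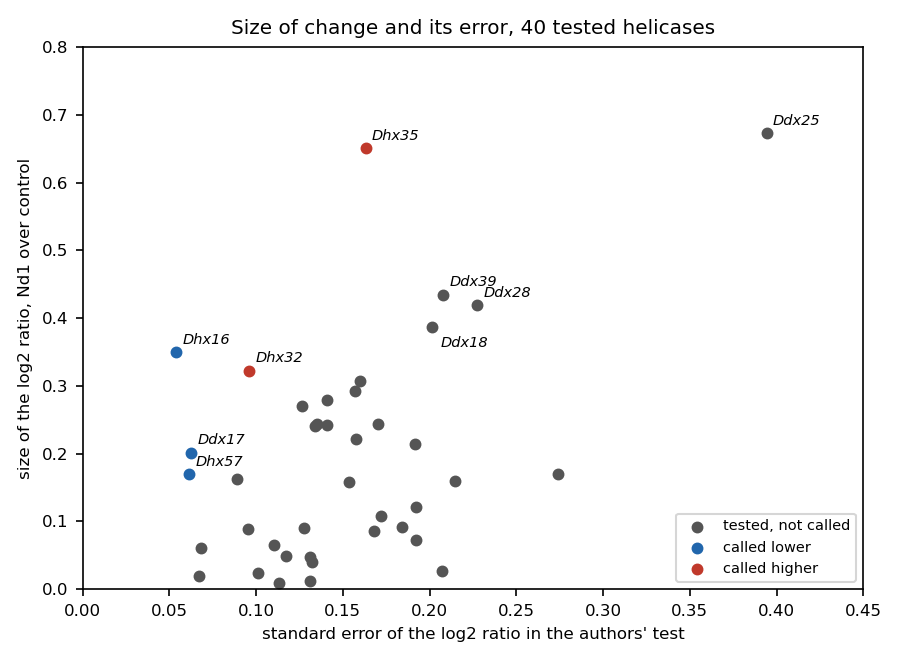
Size of the log2 ratio, Nd1 over control, against its standard error in the authors' test, for the 40 tested helicases other than Ddx60. The 3 genes called lower (blue) sit at the left edge, with errors of 0.054 to 0.063, while Ddx18, Ddx28 and Ddx39 lie higher and further right without a call.

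RNA helicases outside the DEAD and DEAH box names, and proteins that work with the set, were taken as 2 further lists. Of 20 genes on the first list 19 were found by symbol, all but Helz2, and 17 were tested. Of these 1 rose and 3 fell in the authors' deposited table (23.5%, beside 34.4% of all tested loci), with a median log2 ratio of -0.036. Mov10, an antiviral helicase linked to RNA silencing, rose from 1.33 to 3.97 FPKM. Falls were seen for Dicer1, which cuts dsRNA into small RNAs (50.4 to 39.8 FPKM), for Skiv2l, the helicase of the cytoplasmic exosome (31.9 to 26.6 FPKM), and for Upf1, the motor of nonsense-mediated decay (19.6 to 16.5 FPKM). The translation factors Eif4a1 (50.5 and 49.8 FPKM), Eif4a2 (151 and 171 FPKM) and Eif4a3 (32.2 and 29.7 FPKM, a part of the exon junction complex) did not pass. Of 34 partner proteins listed 31 were found by symbol and 27 were tested. Among those tested none rose and 2 fell (7.41%), with a median of -0.087. These were Gemin5, a partner of Ddx20 in the SMN complex (5.08 to 4.01 FPKM), and Patl1, a partner of Ddx6 in decay (15.7 to 12.7 FPKM).

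Marker genes of cell types differed between the groups. The mature neuron markers ranged from 152 FPKM, in Nd1, to 4087 FPKM, in control, which fits the labelled cell type. Of these 10 mature neuron markers 8 were tested and 7 fell. Summed over all 10, with Gnal and Ric8b whose tests failed, the level was 14645 FPKM in control and 6090.1 in Nd1. Omp, the gene named in the reporter and tTA genotypes, went from 4087 to 605 FPKM and so had a large part in the lower sum. Of 8 immature neuron markers 7 rose, with sums of 417 and 787 FPKM. Basal and dividing cell markers summed to 13.6 and 8.10 FPKM (3 of 5 tested fell and 1 rose). Sustentacular and gland markers summed to 235 and 105 FPKM (5 of 9 fell). Most of that was Bpifa1, at 184 and 68.1 FPKM, while Cyp2g1, at 15.8 and 15.3 FPKM, did not pass. Over all tested loci 34.4% passed. Blood and immune markers, of which 10 of 12 listed were found, summed to 25.9 and 5.58 FPKM (4 of 5 tested fell). Most of the control sum was S100a9, S100a8 and Ngp, at 10.1, 9.02 and 5.59 FPKM, which were at 1.92, 1.86 and 0.89 FPKM in Nd1. Aif1, at 0.24 and 0.47 FPKM, did not pass, and Cd68, at 0.20 FPKM in both groups, was not tested. In the last list the T cell markers Cd3e and Cd8a were at or near 0 in both groups. The part of these differences in the helicase values was not tested.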

How the data were processed

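Values per group were read from the 1 table deposited for the series, whose rows are 28168 loci. The authors' FPKM values, 1 per group, come from Cuffdiff 1.3.0 with Bowtie on mm9, per the submitters' processing notes. The annotation, the filters and the way the 2 libraries of a group were combined are not stated there. By its status column 14841 loci were tested, 12711 were not and 616 failed, and 0 columns hold values per sample. The authors also deposited a log2 fold change, a p-value and a q-value for each locus, per the file headers. Calls are theirs at q under 0.05.

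The log2 ratios were computed from the FPKM columns and differ from the deposited ones by at most 1.38e-05 in tested loci. The listed p equals the two-sided normal p of the test statistic within 2.8e-06, so the SE was taken as the log2 ratio divided by the statistic, and 95% intervals from it. These carry the authors' variance model. Coordinates are those of the table with 1 added to each start.

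The members, the role groups and the lists were chosen with earlier results of these data known. Every member is named, as are the called genes of the comparison lists and the Eif4a genes. Promoter sequences are RefSeq's on GRCm38.p6, matched by symbol or, for Ddx26b, by synonym. A planned comparison of protein motifs is not given, as no protein table was used here. The functions were tested on simulated data. Python 3.11.15, pandas 2.3.3 and scipy 1.17.1 were used.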

Additional observations from a re-analysis of the deposited data

How the results depend on the processing

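The count of 6 called helicases was 5 at q under 0.01. It stayed 6 without genes under 1 FPKM, a filter that among tested helicases removed only the uncalled Ddx25. That was 15% of 40 tested, beside 34.2% of all tested loci at that level. Counting every locus of a symbol could not change it, since the added loci of Ddx6 and Dhx32 had failed or were not tested. Taking directions relative to the median of all tested loci leaves the calls as they are, and the directions stayed 3 higher and 3 lower. Requiring also a change of at least 1.5-fold left 2 calls, 2 higher and 0 lower, against 3 and 3. The share of all tested loci at the stricter q or with the fold filter is not given here. These smaller counts can therefore not be read as particular to the helicases. Keeping only genes whose locus overlaps no other, an alternative chosen after seeing the data, left 3 calls among 34 tested. Of these 2 were higher and 1 lower, since Dhx32, Dhx57 and Ddx17 drop out. The only locus that overlaps Ddx17 was Kdelr3, at 0.15 FPKM in control and 0.032 in Nd1, far below Ddx17 itself. For this filter, too, no share of all tested loci is given. On the log2(FPKM + 1) scale the median log2 ratio of the tested helicases was -0.082 and stayed below 0 under the other pseudocounts, filters and scalings tried, between -0.089 and -0.024. Under each alternative for single genes at least 39 of the 41 tested helicases moved by less than 1 SE and no called gene changed direction. Those that moved further included called genes. Ddx60 went from 3.67 to 5.12 with a pseudocount of 0.1 and to 5.44 with none, where Ddx25 went from 0.26 to 0.67. Dhx16 went from -0.33 to -0.27 on centring, and Ddx17 from -0.20 to -0.087 after quantile normalization. Centring shifts every gene equally, so only a gene of small SE could move past 1 SE. Among uncalled genes 5 changed sign after centring on the median and 6 after quantile normalization. Leaving out a replicate was not run, since the table used here holds no value per library. No paired analysis was possible because each group has a single combined value, so that the shared replicate numbers could not enter a fit. The read depth is unknown, and the levels near 0 of Ddx4, Ddx43 and Ddx11, which the authors did not test, have no error.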

Other observations

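Helicase genes that the table joins with other genes fell outside the naming rule. The locus of Ddx5, the close relative of Ddx17, is joined with Mir3064 and was at 825 FPKM in control and 790 FPKM in Nd1, above every gene of the set, and the authors' test failed for it. The locus of Ddx39b, an export and splicing helicase, is joined with the MHC class I genes H2-Q6 and H2-Q7. It rose from 151 to 188 FPKM, with q = 0.00609 in the authors' deposited table, and its value cannot be divided among the 3 genes.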
